A study of Caenorhabditis elegans with 14 samples.

Results

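The mature miRNAs of *Caenorhabditis elegans* embryos that lack HRPK-1 were compared with those of wild type embryos. A strand of the count table entered the comparison if it had at least 10 counts in at least 3 of the 6 embryo libraries, whatever the genotype. Of the 371 strands in the table, 201 did, namely 131 of 214 guide strands and 70 of 157 star strands. Another 109 strands had counts below that limit and 61 had 0 counts in all 6 libraries. The 13 strands just inside the limit (10 counts in 3 libraries) averaged 8 to 98.2 counts, with a median of 17.5, and the 12 just outside it (10 counts in 2 libraries) averaged 6 to 17.8, with a median of 9.5. Among all strands, 13 had at least 10 counts in all 3 *hrpk-1(zen17)* libraries and in at most 1 wild type library, and 0 had the opposite pattern, so some low strands entered through the mutant group.

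A miRNA is cut from a hairpin precursor as a duplex. The guide strand is kept by an Argonaute protein, ALG-1 or ALG-2 in the worm, and directs it to messenger RNAs, and the star strand is usually discarded. HRPK-1 is an RNA-binding protein with KH domains, the worm homolog of hnRNPK, and it has been found in ALG-1 immunoprecipitates. In *C. elegans*, the *mir-35* family is made in oocytes and embryos and is needed for embryonic development. The lin-4 and let-7 families time the larval stages and are low in embryos.

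Small RNA libraries had been made from 3 samples of wild type embryos of the N2 strain and 3 of *hrpk-1(zen17)* embryos on the same background. Worms were grown at 20 °C on bacterial lawns, with no other treatment. zen17 is a CRISPR/Cas9 deletion that removes all or nearly all of *hrpk-1* and leaves no detectable protein, and it was used as 1 line. The labels give neither the age of the embryos nor whether replicates came from separate cultures, so p-values measure the spread between these samples, which may be technical. L4 larvae, the last larval stage, of the same genotypes (3 libraries each) were used beside the embryos. Small RNA counts do not measure *hrpk-1* messenger RNA, so the deletion itself could not be checked in these libraries.

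The embryo libraries held 1919348 to 10900326 counts in wild type and 6980254 to 10565291 in *hrpk-1(zen17)*. Although the labels' extraction text speaks of mixed-stage animals, *mir-35* family guides made up 513588 to 776305 ppm (counts scaled to 1000000 per library) in the embryo libraries and 1402 to 3857 ppm in the wild type L4 libraries. Wild type embryo replicate 3 stood apart. It was the shallowest library, so that 3 counts, the limit set by a count of 0, were 1.56 ppm there against 0.275 to 0.430 ppm in the other 5. Its *mir-35* family share was 513588 ppm, against 776305 and 728438 ppm in the other wild type libraries, and its share of miR-1-3p, a muscle miRNA, was 106505 ppm, against 48327 and 50412 ppm. *hrpk-1(zen17)* embryo replicate 2 leaned the same way, with 528896 ppm of *mir-35* family guides and 86841 ppm of miR-1-3p. Both libraries are therefore named where a value rests on them.

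Strands differed in both directions between *hrpk-1(zen17)* and wild type embryos. Of the 201 strands, 36 passed the test (17.9%), of which 21 were higher in *hrpk-1(zen17)* embryos (10.4%) and 15 were lower (7.46%). The test was edgeR's quasi-likelihood test with TMM scaling, on counts, with levels given as CPM, that is ppm after TMM scaling, and a call is a Benjamini-Hochberg adjusted p below 0.05. Of the calls, 29 were at least 2-fold, 18 higher and 11 lower. The libraries of the 2 groups did not overlap for 61 strands (30.3%), 31 higher and 30 lower, and these held all 36 calls. Over all 201 strands the median log2 fold change was -0.08 and the median size of a change was 0.54.

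The 21 higher strands were 19 guides and 2 stars, with a median wild type level of 3.83 CPM, whereas the 15 lower strands were 6 guides and 9 stars, with a median of 86.6 CPM. By mean level, 9 strands rose and 3 fell of 72 below 10 CPM (16.7% called, against 17.9% of all strands), 7 and 5 of 61 at 10 to 100 CPM (19.7%), 3 and 7 of 35 at 100 to 1000 CPM (28.6%), and 2 and 0 of 33 above 1000 CPM (6.06%). Of the higher calls, 5 had 10 counts in at most 1 wild type library and so passed the limit through the mutant group.

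The split between directions depended on the scale. With each library's total as the scale, 17 strands were called, 16 higher and 1 lower, and the median change over all strands moved up by 0.35 on the log2 scale. Upper-quartile scaling gave 25 higher and 10 lower. Single libraries also moved the count. It was 19 without wild type replicate 1, 21 without wild type replicate 2, 17 without *hrpk-1(zen17)* replicate 1 and 19 without *hrpk-1(zen17)* replicate 3. Without wild type replicate 3 it was 47 (33 higher, 14 lower), of which 28 were among the 36, and without both libraries low in the *mir-35* family it was 75 (44 higher, 31 lower), of which 35 were. In all 6 fits that left out 1 library, 15 of the 36 strands passed again, 13 higher and 2 lower.

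**Figure D1:**
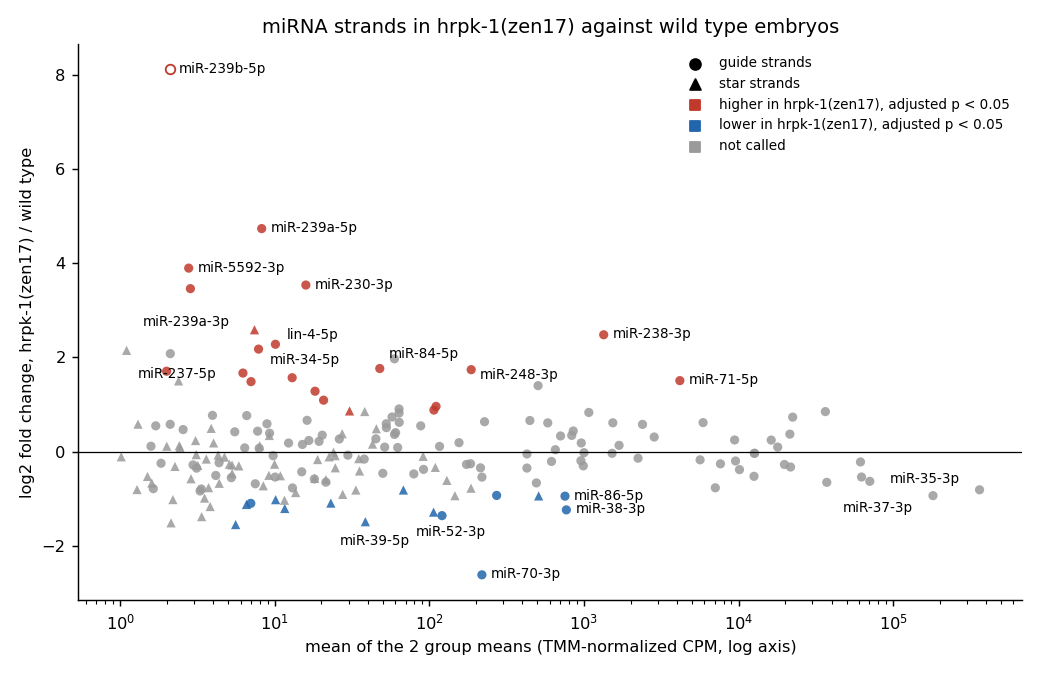
Each point is 1 of the 201 strands, with the mean of both group means (CPM, log axis) against the log2 fold change of *hrpk-1(zen17)* over wild type embryos. Circles are guides and triangles are stars. Of the 36 calls (21 higher in red, 15 lower in blue), miR-238-3p and miR-71-5p are the 2 above 1000 CPM, and the open circle is miR-239b-5p, whose fitted value has no wild type counts behind it.

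miR-238 and the miR-239 miRNAs share sequence at their 5′ ends. Of their 3 guides, miR-238-3p passed the count limit in both groups and rose, while miR-239a-5p and miR-239b-5p passed it through the mutant libraries alone, so that they had to differ and their values are a description. miR-238-3p stood at 385, 443 and 393 CPM in the wild type libraries and at 2498, 2079 and 2249 CPM in the *hrpk-1(zen17)* libraries. The lowest mutant library was thus several times above the highest wild type library. This was a 5.59-fold rise (log2 2.48 ± 0.25, SE, adjusted p = 1.23e-04, edgeR), and the miRNA moved from rank 48 to rank 27 by abundance. *mir-238* lies between protein-coding genes on chromosome III (8867328 to 8867425, WBcel235), in a cluster with *mir-80* and *mir-90*, neither of whose guides was called (log2 0.61 ± 0.29 and 0.58 ± 0.34).

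miR-239a-5p had 5, 4 and 0 counts in the wild type embryo libraries and 132, 356 and 92 counts in *hrpk-1(zen17)*. Its level went from 0.775, 0.71 and 0 CPM to 12.8, 21.9 and 13.1 CPM, a log2 change of 4.74 ± 0.52 (adjusted p = 1.33e-04, edgeR). The star strand of the same hairpin, miR-239a-3p, rose as well, from 1.86, 2.13 and 2.45 CPM to 9.68, 19.9 and 8.26 CPM. Both arms were highest in *hrpk-1(zen17)* replicate 2 and neither group overlapped the other. miR-239b-5p had 0 counts in every wild type library and 32, 110 and 19 counts in *hrpk-1(zen17)*, and was at least 20.9-fold higher, taking 3 counts over the wild type group as the limit. The genes *mir-239a* (X, 11792445 to 11792542) and *mir-239b* (X, 11791302 to 11791399) are 1045 bases apart between protein-coding genes. How reads that fit both were divided is not given in the sources used here, so the split between them is uncertain.

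miR-230-3p showed the largest rise among called strands averaging 100 counts or more. It was at 2.64, 2.13 and 2.80 CPM in wild type and at 35.6, 19.2 and 32.7 CPM in *hrpk-1(zen17)*, an 11.6-fold rise (log2 3.54 ± 0.35, adjusted p = 1.23e-04, edgeR). All 3 wild type libraries lay within 1 CPM of each other, far below every mutant library. *mir-230* is on the X chromosome (5803892 to 5803989), between protein-coding genes and clustered with *mir-791*, whose star strand changed by log2 0.49 ± 0.36 without passing the test.

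lin-4 and miR-237, the members of the lin-4 family, both rose. lin-4-5p, which represses *lin-14* and *lin-28* to end the first larval stage, went from 3.57, 3.19 and 3.49 CPM to 15.4, 11.8 and 23.1 CPM (4.86-fold, log2 2.28 ± 0.34, adjusted p = 0.0011, edgeR). miR-237-5p went from 2.95, 3.37 and 2.45 CPM to 6.78, 9.92 and 11.8 CPM (log2 1.67 ± 0.35). In both, the lowest mutant library was above the highest wild type library. These are low levels all the same, since lin-4-5p in *hrpk-1(zen17)* embryos was at 0.568% of its wild type L4 level in ppm.

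In the let-7 family, 1 of 4 tested guides rose and the other 3 were not called. miR-84-5p, which acts with let-7 in larval timing, went from 18.9, 15.3 and 31.4 CPM to 92.2, 55.7 and 72.6 CPM (3.40-fold, log2 1.77 ± 0.33, adjusted p = 0.00393, edgeR). Wild type replicate 3 was the highest wild type library and still lay below all mutant libraries. let-7-5p itself stood at 35.7, 9.58 and 19.6 CPM in wild type and 7.74, 22.5 and 13.0 CPM in *hrpk-1(zen17)*, and the groups overlapped (log2 -0.58 ± 0.48). miR-48-5p (log2 -0.26 ± 0.29) and miR-241-5p (0.07 ± 0.36) also overlapped between groups. The family median was -0.09, against -0.08 over all strands.

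Of the 6 larval markers, which are the tested let-7 and lin-4 family guides, 3 were therefore higher and 3 were not called. Of all 131 tested guides, 19 were higher. The larval markers' summed level was 189, 146 and 383 ppm in the wild type embryo libraries, 247, 449 and 335 ppm in *hrpk-1(zen17)*, and 92142 to 158255 ppm in wild type L4 larvae. The sums overlapped between the embryo groups, and wild type replicate 3 was above 2 of the 3 mutant libraries. They were largely miR-48-5p, which was not called (means of 185 ppm in wild type and 201 ppm in mutant embryos). A wild type L4 level in ppm above the wild type embryo level was found for 19 of the 21 higher calls. It was found for 3 of 15 lower calls and 104 of all 201 strands. Low wild type embryo counts favour both a higher call and that pattern. A difference in age between the embryo samples was not tested.

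miR-34-5p, a conserved miRNA of the stress response, went from 2.17, 3.02 and 3.49 CPM to 13.2, 13.2 and 11.96 CPM (4.53-fold, log2 2.18 ± 0.32, adjusted p = 8.67e-04, edgeR), with little spread in either group. It was the 1 called member among 7 conserved miRNAs without a close worm relative. The others included miR-124-3p, a miRNA of sensory neurons (log2 0.55), and miR-57-5p (0.62 ± 0.54), which acts in posterior patterning. Without wild type replicate 3, 3 of the 7 were higher, with miR-124-3p (1.24) and miR-235-3p (1.24) added.

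miR-71-5p was the most abundant strand called. It promotes long life in adult worms and was at 1782, 2183 and 2545 CPM in wild type and at 6832, 6892 and 4794 CPM in *hrpk-1(zen17)*, a 2.84-fold rise (log2 1.51 ± 0.29, adjusted p = 0.0044, edgeR). Its star strand, miR-71-3p, rose by log2 0.86 ± 0.25 and lost its call without wild type replicate 1, wild type replicate 2 or any 1 mutant library (adjusted p up to 0.138). *mir-71* lies in an intron of *ppfr-1*, near *mir-2*, whose guide miR-2-3p was not called (log2 -0.05).

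miR-248-3p rose from 67.6, 93.5 and 96.4 CPM to 332.9, 237.0 and 290.2 CPM (log2 1.74 ± 0.27, adjusted p = 0.0012, edgeR). miR-246-3p rose from 8.68, 6.92 and 3.49 CPM to 21.7, 21.7 and 15.1 CPM (log2 1.57 ± 0.34, adjusted p = 0.00949), and lost its call without wild type replicate 2 (0.0523) or without *hrpk-1(zen17)* replicate 1 (0.0569). Neither pair of groups overlapped. The other higher calls with at least 100 counts on average were miR-245-3p, miR-356b-3p, miR-1821 and miR-249-3p, with log2 changes of 0.88 to 1.28. miR-245-3p and miR-356b-3p lost their calls in every fit without 1 library but that without wild type replicate 3 (adjusted p up to 0.154 and 0.091), miR-1821 without wild type replicate 1 or 2 (up to 0.0643), and miR-249-3p without wild type replicate 1 or *hrpk-1(zen17)* replicate 1 (up to 0.0691).

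In a cluster of little-studied genes on chromosome IV, 2 of 3 tested strands were called higher, against 10.4% of all strands. They were chosen for mention after their values were seen. miR-2208b-3p rose from 0.465, 0.532 and 0.349 CPM to 5.71, 6.28 and 3.70 CPM, on 3, 3 and 1 wild type counts, and miR-2209a-3p from 3.41, 2.13 and 5.94 CPM to 10.1, 10.5 and 9.97 CPM. The star strand miR-2208b-5p was not called (log2 2.15 ± 0.75, adjusted p = 0.0692, edgeR), though its groups did not overlap. Both arms of *mir-2208b* passed the count limit through the mutant libraries alone, so they had to differ and their values are a description. miR-2209a-3p lost its call in 4 of the 6 fits that left out 1 library (without wild type replicate 1 or 2, or *hrpk-1(zen17)* replicate 1 or 3, adjusted p up to 0.0848). miR-5592-3p, also singled out afterwards, went from 2, 2 and 1 counts to 34, 105 and 41. It too passed the limit through the mutant libraries alone.

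**Figure D2:**
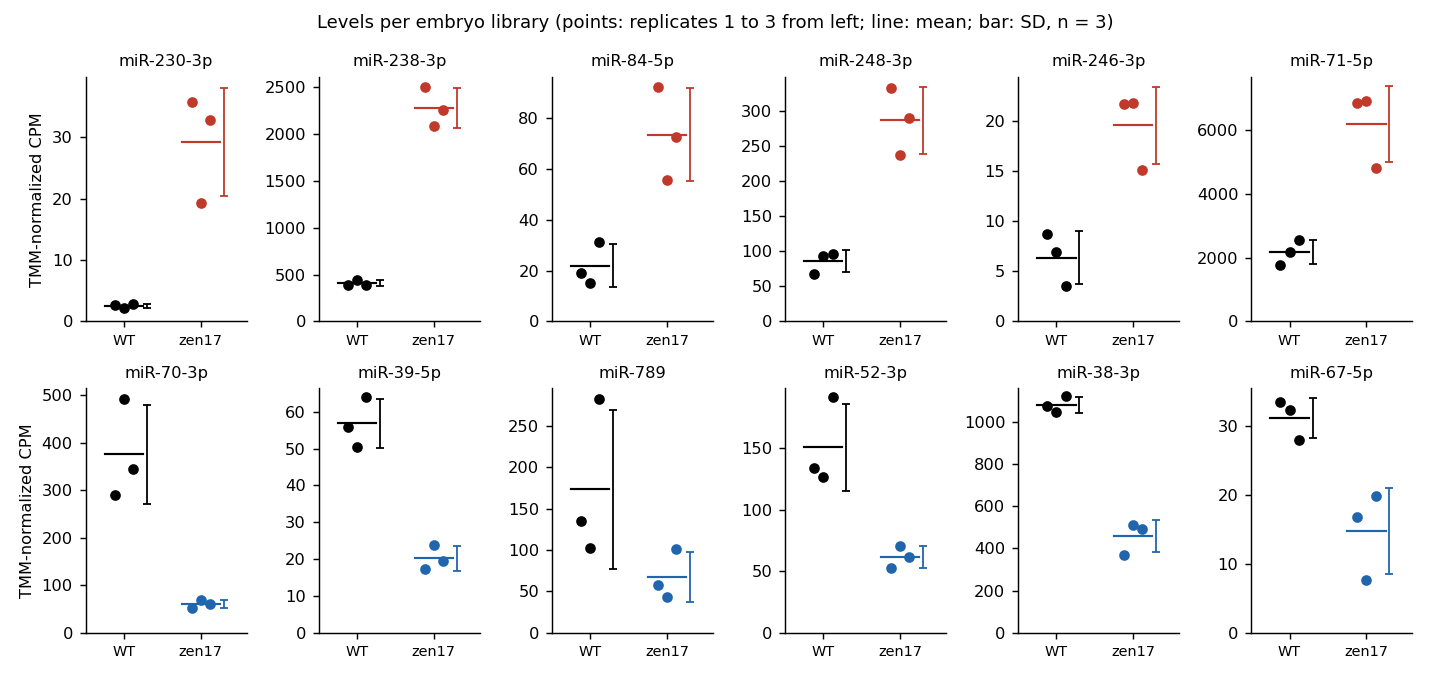
Panels give the TMM-normalized CPM of 12 called strands in each embryo library, the 6 largest rises (top, red) and the 6 largest falls (bottom, blue) among called strands averaging 100 counts or more, each on its own axis from 0. Points are replicates 1 to 3, lines are means and bars are SD (n = 3). miR-238-3p lies at 385 to 443 CPM in wild type and 2079 to 2498 CPM in *hrpk-1(zen17)*, and miR-70-3p at 290 to 492 and 53.0 to 69.4 CPM.

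The strongest fall was in miR-70-3p, the mature strand of a gene in an intron of *pmp-5* (V, 6665536 to 6665635), on the same strand as its host. It stood at 290, 492 and 345 CPM in wild type and at 53.0, 69.4 and 61.1 CPM in *hrpk-1(zen17)*, 6.14-fold lower (log2 -2.62 ± 0.29, adjusted p = 1.33e-04, edgeR). The lowest wild type library was well above the highest mutant library. miR-70-3p dropped from rank 50 to rank 80 by abundance. It was the 1 lower call that remained when the total of each library was the scale.

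*mir-35* family members, the most abundant miRNAs of embryos, all had lower fitted levels in *hrpk-1(zen17)*, but most were not called. Of all 131 tested guides, 6 fell and 56 had log2 changes below 0. Of the family's 8 guides, 1 fell and all 8 had log2 changes below 0, with a median of -0.72. miR-38-3p was the call, at 1076, 1044 and 1120 CPM in wild type and 370.4, 510.7 and 492.7 CPM in *hrpk-1(zen17)* (log2 -1.24 ± 0.25, adjusted p = 0.00614, edgeR). Its wild type libraries were within a narrow range, replicate 3 included, but the call was lost without *hrpk-1(zen17)* replicate 3 (adjusted p = 0.0536).

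In CPM, the major family members differed sharply among the wild type libraries, whose TMM factors were 0.59, 0.73 and 1.49. In ppm some varied less, with wild type means of 52475 ± 2800 for miR-40-3p and 66846 ± 8192 for miR-39-3p (SD, n = 3). miR-35-3p was at 345844 ± 97799 ppm. miR-35-3p, which made up 23.3% to 40.5% of the counts of each wild type library, was at 675210, 553941 and 156241 CPM in wild type and at 336654, 155151 and 297789 CPM in *hrpk-1(zen17)*. Wild type replicate 3 fell among the mutant libraries, and the change was not called (log2 -0.81 ± 0.53, adjusted p = 0.328, edgeR). In miR-37-3p too, wild type replicate 3 was below 2 of the 3 mutant libraries (-0.94 ± 0.49, adjusted p = 0.239). Without wild type replicate 3, 5 of the 8 guides were lower (miR-35-3p, miR-36-3p, miR-37-3p, miR-38-3p and miR-39-3p), with a median of -0.91, and without both libraries low in the family 6 of 8 were. With the total as the scale the median was -0.25, 0 were called, and miR-40-3p (0.32) and miR-42-3p (0.19) had changes above 0.

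Of all 70 tested stars, 9 fell and 53 had log2 changes below 0. Of the 8 star strands of the *mir-35* family, 2 fell and 6 were not called, 1 of them with a change above 0 (miR-42-5p, 0.24), and the median was -0.68. With the total as the scale 0 were called and 4 were above 0. miR-39-5p went from 56.0, 50.6 and 63.9 CPM to 17.2, 23.8 and 19.5 CPM (2.81-fold lower, log2 -1.49 ± 0.25, adjusted p = 0.00195, edgeR), and wild type replicate 3 was the highest of all libraries. miR-40-5p went from 15.0, 11 and 22.7 CPM to 7.84, 6.65 and 6.26 CPM and lost its call in 5 of the 6 fits without 1 library (all but that without wild type replicate 2, adjusted p up to 0.128). *mir-35* to *mir-41* form 1 cluster in an intron of Y62F5A.9 on chromosome II, on the strand opposite to that gene. All 14 strands tested from this cluster had log2 changes below 0, with 3 called. Of all 201 strands, 109 had changes below 0 and 17.9% were called. With the total as the scale, 4 of the 14 (miR-35-5p, miR-36-5p, miR-40-3p and miR-41-5p) had changes above 0.

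Other large families of the embryo showed no call among their guides. Since 25 of all 131 tested guides were called, 0 calls in a family of 3 to 6 says little about that family. The *mir-51* family, which is needed in embryonic development together with others, had 0 of 6 guides called and a median of 0.31. In the *mir-58* family, broadly expressed miRNAs related to the fly bantam miRNA, 0 of 4 were called, with miR-58-3p at 31713, 43409 and 61431 CPM in wild type and 24597, 35649 and 26614 CPM in *hrpk-1(zen17)* (log2 -0.65 ± 0.34) and miR-80-3p at 0.61 ± 0.29. Neither the *mir-64* family (0 of 4, median -0.19), the *mir-44* family (0 of 3, -0.04) nor the *mir-2* family (0 of 4, -0.16) held a called guide. Stars were called lower in the *mir-51* (miR-52-3p and miR-55-5p), *mir-58* (miR-81-5p) and *mir-64* (miR-229-3p) families. Of the 6 fits that left out 1 library, miR-55-5p passed in 1 and miR-81-5p in 3. The counts of miR-44-3p and miR-45-3p were almost equal throughout (90495 and 90571 in wild type embryo replicate 1), so the family rests on fewer independent values than its strands. Without wild type replicate 3, miR-80-3p, miR-229-5p and miR-797-5p, 1 in each of the *mir-58*, *mir-64* and *mir-2* families, were higher.

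Among the other small groups, 1 held a call, and groups this small say little when 25 of all 131 tested guides were called. In the pair miR-240 and miR-786, which form a cluster on the X chromosome, miR-786-3p, a miRNA that sets the rhythm of defecation, fell from 11.8, 10.1 and 6.64 CPM to 4.45, 5.36 and 3.56 CPM (log2 -1.10 ± 0.33), and miR-240-3p was not called (-0.79 ± 0.46). miR-786-3p lost its call without wild type replicate 1 or 2 and without *hrpk-1(zen17)* replicate 1 or 3 (adjusted p up to 0.171, edgeR). There were 0 calls among the 3 guides of miR-72 to miR-74, the 2 of miR-75 and miR-79, the 2 of miR-49 and miR-83, the 2 of miR-46 and miR-47, the 3 of miR-50, miR-62 and miR-90, the 1 tested of miR-232 and miR-357, and 3 mirtrons, which are introns spliced out as hairpins. miR-50-5p was higher only without wild type replicate 3 (log2 1.38).

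**Figure D3:**
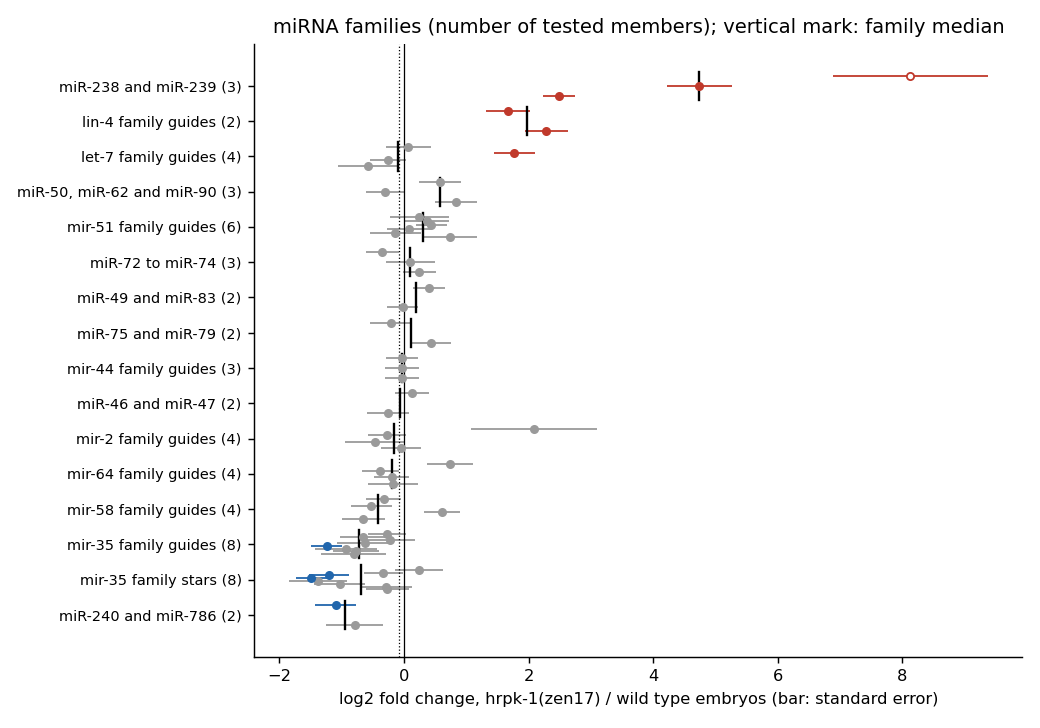
Points are the log2 fold changes of the tested members of 16 families or groups, with SE bars, red where called higher, blue where called lower and grey where not called. Vertical marks are family medians and the dotted line is the median of all 201 strands (-0.08). Both members of the lin-4 family and the 3 of miR-238 and miR-239 are red, and the 8 *mir-35* family guides lie left of 0. The open circle is miR-239b-5p.

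Among 7 miRNAs that the study names from this series, some of them for these embryo libraries and others for L4 larvae, 1 rose (miR-84-5p), 2 fell (miR-70-3p and miR-86-5p) and 4 were not called. Those named for the embryo libraries are not independent evidence of their direction. miR-86-5p fell from 910, 929 and 1137 CPM to 549, 409 and 586 CPM (log2 -0.95 ± 0.26, adjusted p = 0.0285, edgeR). The groups were clear of each other, but its call was lost in each of the 6 fits without 1 library (adjusted p up to 0.108). lsy-6-3p, which sets the asymmetry of a pair of taste neurons, was at 16.3, 15.6 and 22.0 CPM in wild type and 17.4, 28.5 and 16.1 CPM in *hrpk-1(zen17)*, with overlapping groups (log2 0.22 ± 0.30). miR-42-3p overlapped as well (-0.27 ± 0.30).

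The 10 most abundant strands of wild type embryos, miR-35-3p, miR-37-3p, miR-1-3p, miR-39-3p, miR-40-3p, miR-58-3p, miR-82-3p, miR-228-5p, miR-42-3p and miR-55-3p, included 0 calls, against 17.9% of all strands. Their log2 changes ran from -0.94 (miR-37-3p) to 0.85 (miR-228-5p). In CPM the groups did not overlap for miR-1-3p (-0.54 ± 0.29) and miR-82-3p (-0.33 ± 0.28), both lower, against 30.3% of all strands. With the total as the scale these changes were -0.16 and -0.008. In ppm, miR-1-3p overlapped, at 48327, 50412 and 106505 in wild type and 49301, 86841 and 47346 in *hrpk-1(zen17)*.

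Strands marked as star made up most of the lower calls, among them miR-229-3p and miR-4816-5p, which were above their guides in wild type embryos. Of 70 stars, 9 fell and 2 rose, and 53 had a change below 0 with a median of -0.34, whereas 75 of 131 guides had a change above 0 with a median of 0.15. With the total as the scale the medians were 0.03 and 0.54, so the sign of the star median flipped. A change of scale moves both arms by about the same amount, so it cannot test the gap between them. Star strands together were 0.139%, 0.186% and 0.401% of the counts in wild type and 0.162%, 0.265% and 0.174% in *hrpk-1(zen17)*. The highest of these shares was in wild type replicate 3.

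Besides miR-70-3p, miR-86-5p and the *mir-35* family, 6 strands with a mean of at least 100 counts fell, 4 of them stars. miR-52-3p, the star of a *mir-51* family hairpin on chromosome IV (14034008 to 14034107), fell from 134, 127 and 192 CPM to 52.6, 71.0 and 61.8 CPM (log2 -1.29 ± 0.27, adjusted p = 0.00728, edgeR), a call lost without *hrpk-1(zen17)* replicate 1 (0.0522) or replicate 3 (0.0845). Its guide, miR-52-5p, was at 1464, 1631 and 3943 CPM in wild type and 1821, 1580 and 2986 CPM in *hrpk-1(zen17)*, overlapping. miR-789 (134.9, 102.7 and 283.0 CPM to 57.9, 43.4 and 101.4 CPM) and miR-67-5p (33.5, 32.3 and 27.95 CPM to 16.8, 7.70 and 19.8 CPM) passed narrowly, at an adjusted p of 0.0497 each. The call of miR-789 was lost in all 6 fits without 1 library, down to a log2 change of -0.73 without wild type replicate 3, and that of miR-67-5p in every such fit but the one without wild type replicate 3 (adjusted p up to 0.154). miR-355-5p, miR-229-3p and miR-4816-5p completed the lower calls of this size, with log2 changes of -0.82 to -0.94. miR-4816-5p lost its call in all 6 fits without 1 library (adjusted p up to 0.155), and miR-355-5p and miR-229-3p in every one but that without *hrpk-1(zen17)* replicate 2 (up to 0.245 and 0.138).

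Guide and star levels were compared within a hairpin by the log2 ratio of their counts, which does not depend on library size except where counts are near 0. Both arms passed the count limit for 63 hairpins. None (0%) passed limma's test of the ratio at an adjusted p of 0.05, 10 had an unadjusted p below 0.05, all with a higher guide share in *hrpk-1(zen17)*, and the smallest adjusted p was 0.0718. The ratio was higher in *hrpk-1(zen17)* for 50 of 63 hairpins, with a median difference of 0.58, and without wild type replicate 3 the count was again 50 and the median 0.54. Per library, the median log2 ratio was 6.04, 6.15 and 6.32 in wild type and 6.52, 6.21 and 6.63 in *hrpk-1(zen17)*, so the groups overlapped through *hrpk-1(zen17)* replicate 2.

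The ratio did not overlap between groups for 15 hairpins (23.8%), 14 higher and 1 lower. In *mir-54* the log2 ratio of guide to star was 1.96, 1.53 and 1.39 in wild type and 2.90, 2.86 and 2.78 in *hrpk-1(zen17)* (difference 1.22 ± 0.34, adjusted p = 0.0718, limma). In *mir-239a*, whose strand marked as star was the more abundant in wild type, the ratio was -1.18, -1.47 and -3.91 in wild type and 0.40, 0.14 and 0.66 in *hrpk-1(zen17)* (2.59 ± 0.72). *mir-229* was of the same kind, with the strand marked as star ahead in all 6 libraries (-4.36, -4.34 and -3.47, then -1.75, -2.90 and -2.31). *mir-42* was the hairpin with a lower ratio, 12.8, 13.0 and 12.8 against 12.2, 12.6 and 12.3. In 9 hairpins only the star was called, and lower, and in 2 (*mir-71* and *mir-239a*) both arms were called higher.

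**Figure D4:**
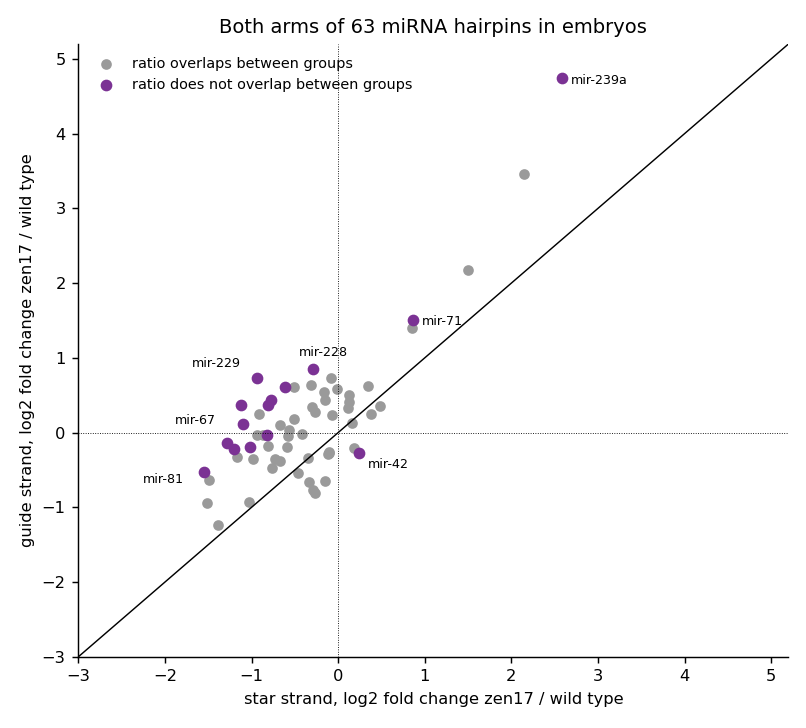
For 63 hairpins, the log2 fold change of the guide in *hrpk-1(zen17)* over wild type embryos is plotted against that of the star, with the line where both are equal. Purple points are the 15 hairpins whose guide to star ratio did not overlap between groups, and of these *mir-42* is the 1 below the line.

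By genome position, 118 strands came from genes between protein-coding genes and 73 from introns. The former held 16 higher and 4 lower calls (13.6% and 3.39%), and the latter 4 higher and 10 lower (5.48% and 13.7%), against 10.4% and 7.46% of all strands. No difference between places was tested. Of the intronic strands, 24 lay opposite to their host gene, with 0 higher and 5 lower calls, and 14 of these 24 belonged to the *mir-35* cluster. The X chromosome held 65 tested strands, with 9 higher and 3 lower (13.8% and 4.62%), and chromosome II 41, with 1 higher and 5 lower (2.44% and 12.2%). Strands in clusters of miRNA genes less than 10000 bases apart (82) had 7 higher and 6 lower calls (8.54% and 7.32%), and strands outside clusters (112) had 13 and 8 (11.6% and 7.14%), shares near those of all strands.

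The changes of embryos were set beside those of L4 larvae of the same genotypes, which are other libraries. In L4 larvae 0 of 228 tested strands (0%) passed edgeR's test (33 had an unadjusted p below 0.05), and 9 passed DESeq2. Of the 36 embryo calls, 35 were tested at L4 and 21 of them (60%) had the same sign there, against 114 of all 183 strands tested at both stages (62.3%). The median size of their log2 change was 1.49 in embryos and 0.33 at L4. These strands were chosen by their embryo change, so a larger size in embryos was fixed in advance. Over all tested strands the median size was 0.54 in embryos. At L4 it was 0.32 over the 183 strands tested at both stages.

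The difference between stages was tested as an interaction over 12 libraries. Of 250 strands, 12 were called (4.8%), and 10 of these were among the 36 embryo calls. The interaction used the embryo libraries that gave those 36 calls, so this overlap was in part fixed in advance. miR-70-3p turned direction. In L4 larvae the wild type libraries averaged 3678 ± 2160 ppm, the mutant libraries 9831 ± 1405 ppm (SD, n = 3), with a log2 change of 1.27 ± 0.59 that was not called, against -2.62 in embryos (difference 3.73 ± 0.73, adjusted p = 0.00374, edgeR). miR-238-3p, by contrast, kept its direction with a smaller change at L4 (log2 0.36, not called). Its L4 levels were 4649 ± 1771 ppm in wild type and 5604 ± 1862 ppm in the mutant. The difference between stages was -2.24 ± 0.37 (adjusted p = 9.06e-04, edgeR). The level of miR-238-3p in *hrpk-1(zen17)* embryos was 57.1% of its wild type L4 level.

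miR-230-3p, lin-4-5p and miR-34-5p had L4 changes of -0.14, -0.19 and 0.08, and all of them were called in the interaction test. They too had been chosen by their embryo change. miR-230-3p in *hrpk-1(zen17)* embryos was at 6.96% of its wild type L4 level, miR-34-5p at 17.4% and miR-239a-5p at 106%. miR-84-5p (difference -1.39 ± 0.47, adjusted p = 0.101) and miR-71-5p (-1.39 ± 0.44, 0.0852), with L4 changes of 0.45 and 0.23, did not pass this edgeR test. miR-39-5p was nearly the same at both stages, with -1.49 in embryos and -1.38 at L4, though at L4 it averaged 1.22 ppm in wild type.

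**Figure D5:**
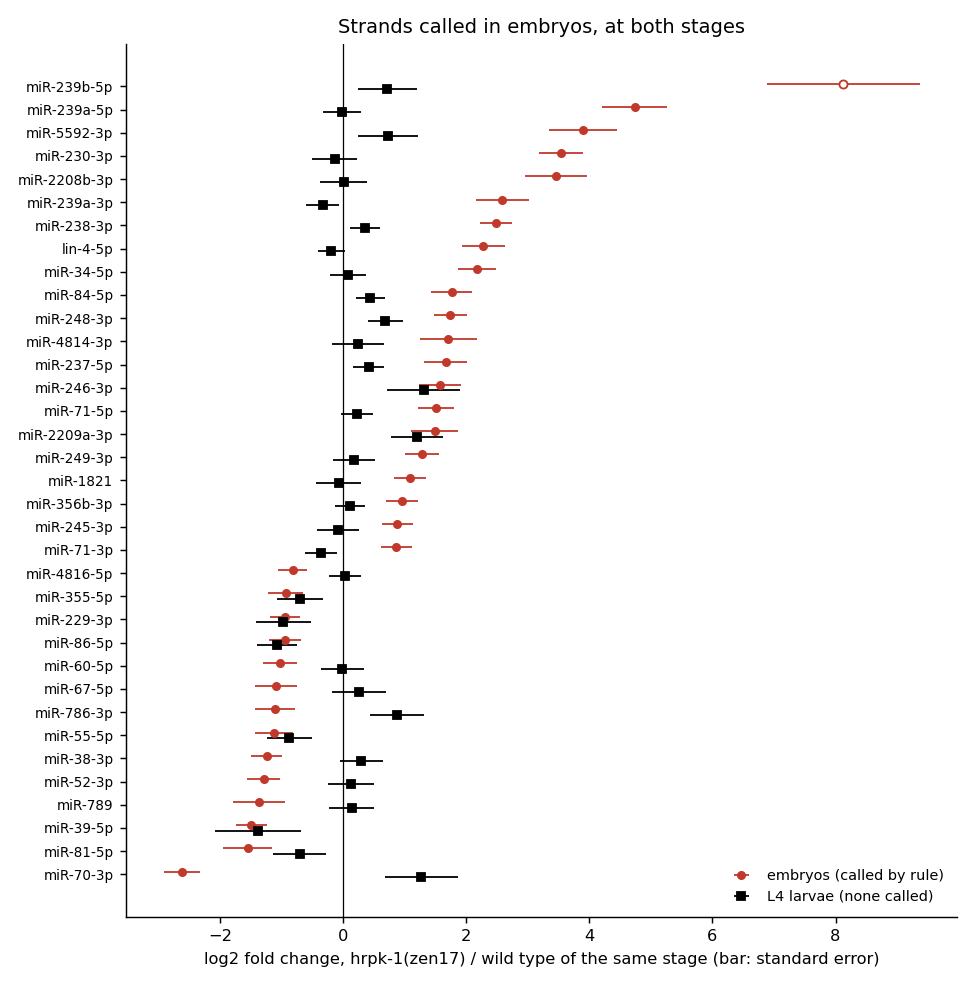
The 35 embryo calls also tested at L4 are ordered by their embryo log2 fold change (red, with SE), and black squares give the L4 change of the same strand (with SE). The strands were chosen by their embryo change. Most squares lie near 0, whereas miR-70-3p is at -2.62 in embryos and 1.27 at L4. The open circle is miR-239b-5p.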

How the data were processed

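Small RNA was size selected on gels, made into libraries with a NEXTflex kit and sequenced on an Illumina NextSeq. The submitters' processing notes name cutadapt 1.15 and Bowtie. The authors deposited raw counts per mature miRNA strand, marked as guide or star, without normalization. The counting steps, the miRNA annotation and the handling of reads that fit several miRNAs are not given in the sources used here. All 14 columns matched a sample label.

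Counts of embryo libraries were tested with edgeR 4.0.16 (quasi-likelihood test, TMM scaling, R 4.3.3) without covariates, with Benjamini-Hochberg adjustment over 201 strands. CPM values are TMM-normalized and ppm values are shares of the table total. The stage interaction used 12 libraries and the L4 comparison 6. The log2 ratio of guide to star counts, each raised by 0.5, was fitted with limma 3.58.1. The scripts were tested on simulated data. Counting limits cover counting error only.

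The strands and lists were chosen with earlier results of these data known. Named strands were called strands with a mean of at least 100 counts (6 per direction in full), the 10 most abundant in wild type embryos, those the study names, and list members with up to 4 examples. Alternatives were DESeq2 1.42.0, other scalings and filters, all 14 libraries, a replicate block and leaving out each library. Leaving out the *mir-35* family, or both libraries low in it, was chosen after seeing the data. Positions are from Ensembl release 115 (WBcel235), where 206 of 214 genes were found by name. The lin-4 and other families were grouped by background knowledge, and shared 5′ ends were not checked against sequences. miR-240 and miR-786 are named together as neighbours in 1 cluster. Figures were drawn with matplotlib 3.10.9.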

Additional observations from a re-analysis of the deposited data

Results flagged for a closer look

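For 10 of the strands called in embryos the *hrpk-1(zen17)* change differed between L4 larvae and embryos by edgeR's interaction test. All 10 had been chosen by their embryo change, in libraries that this test used again. The L4 change minus the embryo change, on the log2 scale, was -8.12 for miR-239b-5p, -4.95 for miR-239a-5p, -3.77 for miR-230-3p, -3.64 for miR-2208b-3p, -3.37 for miR-5592-3p, -3.10 for miR-239a-3p, -2.58 for lin-4-5p, -2.24 for miR-238-3p, -2.23 for miR-34-5p and 3.73 for miR-70-3p. miR-239b-5p, miR-239a-5p, miR-2208b-3p and miR-5592-3p passed the embryo count limit through the mutant libraries alone, so their values carry that selection. The value for miR-239b-5p rests on 0 counts in wild type embryos and is no bound. That for miR-5592-3p lost its call in 6 of the 12 fits without 1 library (without wild type embryo replicate 1 or 2, wild type L4 replicate 3, *hrpk-1(zen17)* embryo replicate 2 or 3, or *hrpk-1(zen17)* L4 replicate 3), with adjusted p of 0.0519 to 0.128 there, and that for miR-34-5p with the library total as the scale (adjusted p = 0.0874).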

How the results depend on the processing

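For the 36 embryo calls, the count was 45 with DESeq2, 40 with RLE factors, 35 with upper-quartile scaling, 35 without a filter and 30 over all 14 libraries. It moved by over 1.5 times with the library total as the scale (17), with 10 counts required in all 6 libraries (22 of 165), with the *mir-35* family left out (21 of 185), and without both libraries low in that family (75). Leaving out 1 library gave 17 to 47. The labels do not say whether same-numbered samples were paired. Correlations of same-numbered deviations were -0.00, -0.09 and -0.23. They cannot settle this, since deviations from a mean of 3 libraries sum to 0. With a replicate block 30 strands were called, 27 of them among the 36. For the guide to star ratio, 0 calls became 3 with the replicate block, and 0 to 3 without 1 library. The 12 calls of the stage difference became 19 with DESeq2, 11 with the total as the scale, 9 with the replicate block and 9 to 15 without 1 library. At L4, 0 calls became 9 with DESeq2, 3 with the total as the scale, 0 with the replicate block and 0 to 8 without 1 library (8 without wild type L4 replicate 2). Over single strands, 405 alternative values kept their side of the threshold and 160 lost the call in embryos, and 142 kept it and 8 lost it for the stage difference, with 0 reversed. The cause of these moves was not tested. Depth limits wild type embryo replicate 3 most.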
